A study of Homo sapiens with 6 samples.

Results

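The cytosolic ribosomal protein genes were examined in 12Z cells after knockdown of the long noncoding RNA LINC01133. Members were the protein-coding genes whose symbol is RPL or RPS followed by digits and at most one letter A or X, together with RPLP0, RPLP1, RPLP2 and RPSA, with pseudogenes left out. The rule used no measured value and took 77 of the 60660 genes in the files, 46 of the large (60S) and 31 of the small (40S) ribosomal subunit. 12Z is a single established epithelial cell line derived from endometriosis, and the study asked what loss of LINC01133 does to its transcriptome. The 3 control libraries came from 12Z cells that received a non-targeting control siRNA, and the 3 knockdown libraries from 12Z cells that received siRNA LINC01133a at 10 nM. All RNA was taken 72 h after transfection. RNA-sequencing used 1 siRNA against LINC01133, so the loss of this RNA and any other effect of that siRNA cannot be told apart.

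Each ribosome carries 1 copy of most of these proteins, and cells make them in matched amounts, with surplus protein degraded. The exceptions are RPLP1 and RPLP2, which sit on RPLP0 in several copies and form the stalk, the arm of the large subunit that recruits and activates the translation factors. Ribosomal protein mRNAs start with a C followed by a run of pyrimidines, the 5′ terminal oligopyrimidine (TOP) motif, through which mTOR and LARP1 regulate their translation and stability. Counts of mRNA do not measure translation.

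The start sites of the genes described in most detail are shown to make the TOP motif visible. Each window covers 30 bases, from 15 before the RefSeq start to the 15 that begin with it, on the strand of the gene in GRCh38.p14, and capitals mark the pyrimidine run found by the search described below. RPLP0 lies at chr12:120201097-120201126, RPLP1 at chr15:69452803-69452832, RPLP2 at chr11:809952-809981, RPL12 at chr9:127451392-127451421, RPL24 at chr3:101686704-101686733, RPSA at chr3:39406705-39406734, RPL38 at chr17:74203663-74203692 and RPS14 at chr5:150449725-150449754. RPLP0, RPL12, RPL24 and RPS14 are on the minus strand and the others on the plus strand.
RPLP0: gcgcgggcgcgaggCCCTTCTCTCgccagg
RPLP1: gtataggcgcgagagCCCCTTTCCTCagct
RPLP2: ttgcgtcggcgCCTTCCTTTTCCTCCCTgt
RPL12: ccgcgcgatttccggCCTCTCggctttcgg
RPL24: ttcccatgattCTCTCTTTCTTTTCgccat
RPSA: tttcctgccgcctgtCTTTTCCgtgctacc
RPL38: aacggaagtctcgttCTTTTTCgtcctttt
RPS14: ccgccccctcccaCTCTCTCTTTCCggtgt

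The search asked for a C within 5 bases of the RefSeq start, followed on the coding strand by at least 4 bases that were each C or T. Of the 77 members, 62 matched a listed start by symbol, and 53 of these (85.5%) held such a run, against 6886 of 27303 genes of all kinds with a listed start (25.2%). The run was present in 9 of 10 members that rose, in 4 of 5 that fell and in 40 of 47 that did not pass the test. RPS29, one of those that rose, and RPS26, one of those that fell, had no run in this window. A match describes letters at an annotated start, since no start site was measured in 12Z cells.

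The 6 libraries held 27742562 to 37551194 counts on genes, and 93.9% to 94.1% of stranded counts fell in the strand column used. LINC01133 had 859, 726 and 808 counts in control and 153, 135 and 122 in knockdown cells (log2 fold change -2.63, SE 0.070, adjusted p = 3.5e-11). All 6 epithelial markers were detected and 5 of them (CDH1, KRT7, KRT8, KRT18 and KRT19) fell, while EPCAM was low, with means of 13.6 normalized counts in control and 16.9 in knockdown cells. Of 8 markers of other cells, CD3E, ALB, HBB, PECAM1 and DES were below the filter, CD14 fell from 1707 to 863 normalized counts and CDH5 rose from 63.4 to 174, and PTPRC had 23.8 in control and 20.4 in knockdown cells. Their part in the results on ribosomal protein genes was not tested.

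Of the 77 members, 76 passed the filter on low counts, and a median member had 10140 normalized counts in control cells. Spread between libraries was small, with a median coefficient of variation of 3.43% in control and 3.23% in knockdown cells, and 66 members had a standard error under 0.05 on the log2 scale. Members with no exon shared with another gene had 1756 to 37291 counts in every library.

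Most ribosomal protein mRNAs differed by less than 10% between the groups, RPLP0 was the one that rose most and RPL24 the one that fell most. In the quasi-likelihood test of edgeR, adjusted by Benjamini-Hochberg over 15155 tested genes, 12 members rose and 5 fell, while 59 did not pass an adjusted p of 0.05. These 17 of 76 are 22.4% of the members, against 48.3% of all genes tested. By direction the background was 23.3% called higher and 25% called lower. The split depended on scaling and on single libraries: with library size alone 31 members rose and 3 fell, with the summed counts of the members as library size 8 rose and 7 fell, and 5 rose without knockdown replicate 1 and 7 without knockdown replicate 2. Without control replicate 1, and likewise without knockdown replicate 2, 3 members fell. The median log2 fold change of the members was 0.02, beside 0.003 for all genes, and their interquartile range was 0.106, beside 0.419. The change was within 10% in 64 of 76 members (84.2%) and in 37.2% of all genes tested. With the cutoffs of the study for differential expression, a fold change over 1.5 and an adjusted p under 0.05, only RPLP0 was called, where 11.7% of all genes tested passed, 5.3% as higher and 6.43% as lower. Control and knockdown values did not overlap in 16 members that were higher and 10 that were lower, together 26 of 76, where 28.3% of all genes tested were higher and 29% lower in this way. RPL24 was the nearest member outside that fold.

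**Figure D1:**
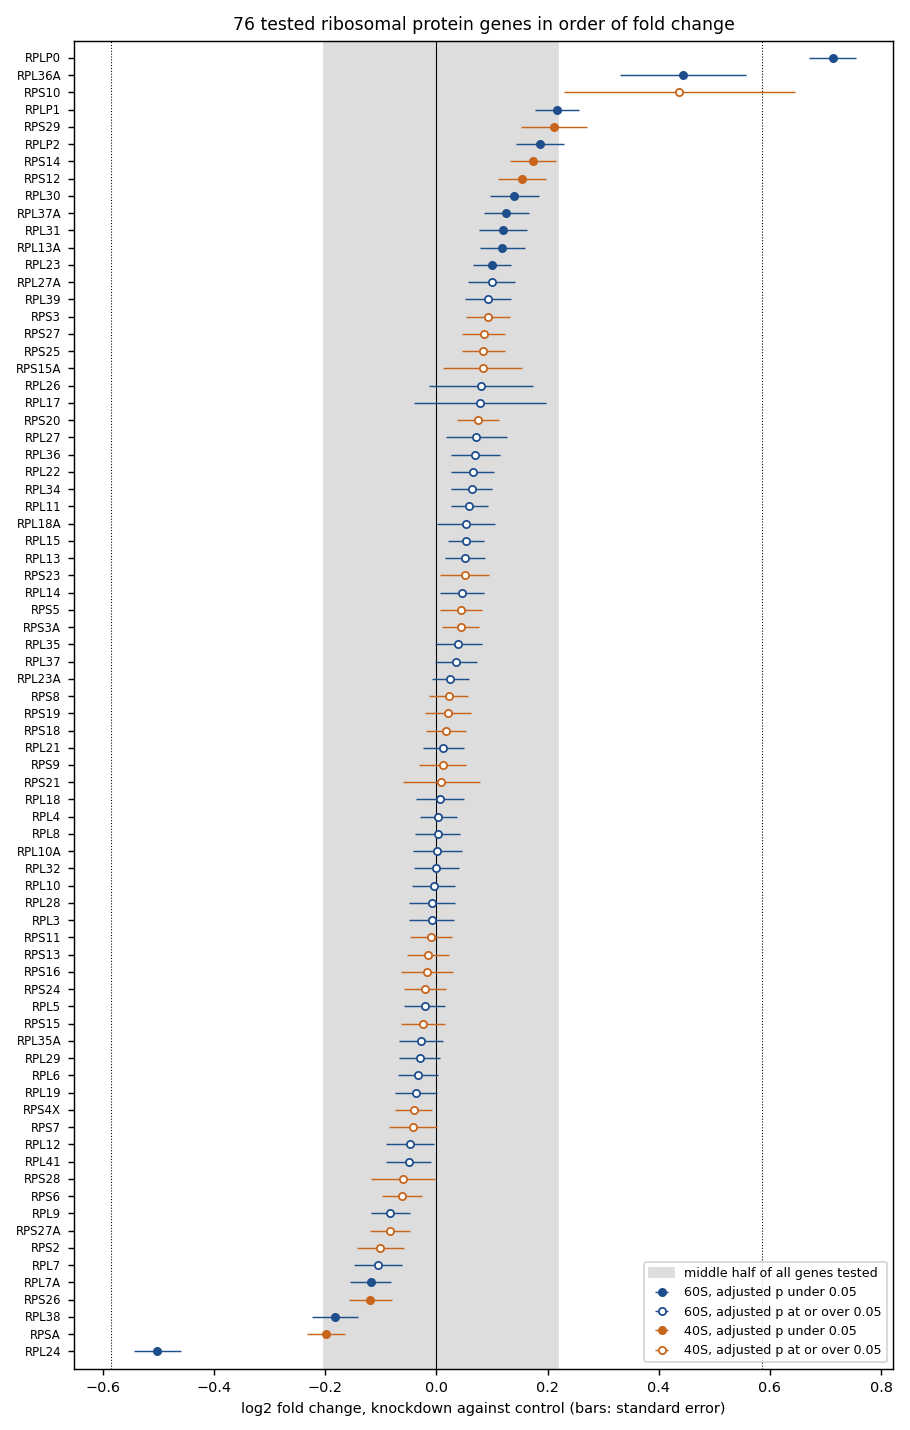
Log2 fold change (x axis, knockdown against control) of each of the 76 tested members (y axis, in order), with bars for the standard error, blue for 60S and orange for 40S, and filled points for an adjusted p under 0.05. RPLP0 at 0.71 and RPL24 at -0.50 stand at the ends, most points lie inside the grey band that holds the middle 50% of all genes tested, and the low-count RPS10 and RPL36A have the widest bars. Dotted lines mark the fold change of 1.5.

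The stalk held the largest rise. RPLP0 (ENSG00000089157.16, chr12:120196699-120201235), the scaffold of the stalk, had 17805, 16124 and 17721 normalized counts in control and 28466, 28568 and 27630 in knockdown libraries. The groups were far apart, and the mean rose from 17217 ± 947 to 28221 ± 514 (SD, n = 3), a fold of 1.64 and a log2 fold change of 0.71 (SE 0.042, adjusted p = 2.7e-08). RPLP1, which binds RPLP0 as a pair with RPLP2, had 12396, 11832 and 12200 normalized counts in control and 14487, 14434 and 13428 in knockdown libraries. Its groups did not overlap either, with means of 12143 ± 286 and 14116 ± 596 (SD, n = 3), and its log2 fold change was 0.22 (SE 0.039, adjusted p = 5.1e-04). RPLP2 had 8117.5, 7400.9 and 7551.5 normalized counts in control and 9110.7, 8655.9 and 8477.2 in knockdown libraries. It also rose without overlap, from 7690 ± 378 to 8748 ± 326 (SD, n = 3), with a log2 fold change of 0.19 (SE 0.043, adjusted p = 0.0032). RPL12, which sits at the base of the stalk beside RPLP0, had 11468, 10722 and 11064 normalized counts in control and 11154, 10895 and 10136 in knockdown libraries. Its values overlapped, and it did not pass the test (log2 fold change -0.05, SE 0.043, adjusted p = 0.39).

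Ratios of raw counts within a library need no scaling between libraries and showed the same order. RPLP0 reads per RPL12 read were 1.553, 1.504 and 1.602 in control and 2.552, 2.622 and 2.726 in knockdown libraries, 69.6% higher in the mean. RPLP0 reads per RPLP1 read were 1.44, 1.36 and 1.45 in control and 1.97, 1.98 and 2.06 in knockdown libraries, 41.2% higher in the mean and higher in each knockdown than in any control library. The ratio of RPLP0 to RPLP2 was 44.1% higher and went from 2.18 to 2.35 in control up to 3.12 to 3.30 in knockdown libraries. RPLP1 per RPL12 moved from 1.08 to 1.10 in control up to 1.30 to 1.33 in knockdown libraries, 20.1% higher, and RPLP2 per RPL12 was 17.6% higher. The ratio of RPLP1 to RPLP2 was 1.58 ± 0.047 in control and 1.61 ± 0.047 in knockdown cells (SD, n = 3), with overlapping values. Of 9 such quantities, 8 had groups apart, each with p = 0.1 by a two-sided exact permutation test, the smallest that 3 against 3 libraries allow, and 0.1125 after Benjamini-Hochberg adjustment over the 9. Two-sided p was 0.6 for RPLP1 per RPLP2 by the same exact test. All 9 are built on RPLP0, RPLP1, RPLP2, RPL24 or RPSA, whose normalized counts were already apart between the groups. The tally therefore restates those counts and is no separate support.

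**Figure D2:**
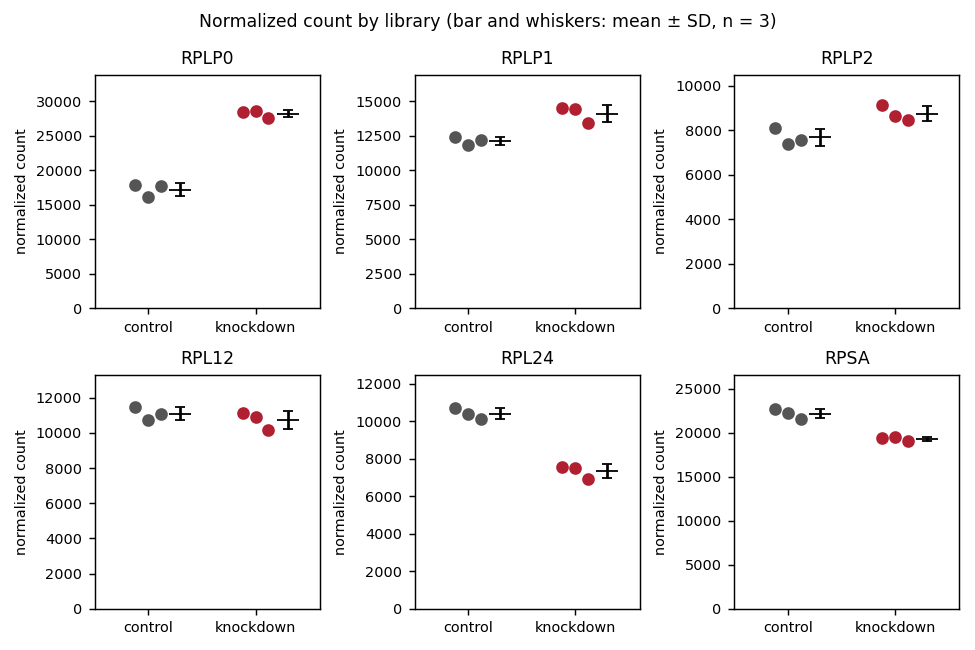
Normalized counts (y axis, from 0) in each control (grey) and knockdown (red) library for RPLP0, RPLP1, RPLP2, RPL12, RPL24 and RPSA, with the mean and SD of 3 libraries beside the points. RPLP0 in knockdown libraries (27630 to 28568) lies above all control libraries (16124 to 17805), RPL24 (6932 to 7577) lies below them (10123 to 10713), and RPL12 overlaps.

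Expressed as a share of all counts on members, RPLP0 made up 1.89%, 1.79% and 1.92% in control and 2.99%, 3.02% and 3.04% in knockdown libraries. Because reads with more than 1 mapping position were dropped, copies of a gene elsewhere matter. In the spliced RPLP0 transcript, 29.8% of the stretches as long as a sequencing read also occurred elsewhere in the genome, and no such stretch was found for RPLP1 or RPLP2. The study sequenced both ends of each fragment, so such a percentage is not the share of reads lost. The best-counted copy, the pseudogene RPLP0P6, had 79, 68 and 72 counts in control and 152, 144 and 103 in knockdown libraries, which is higher without overlap. The nearest tested genes on either side of RPLP0 were looked up after its value was seen. GCN1 had a log2 fold change of -0.16 (SE 0.057, adjusted p = 0.038) and PXN one of -0.19 (SE 0.048, adjusted p = 0.0057), both lower.

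RPL24 (ENSG00000114391.13, chr3:101681091-101686733), which forms a bridge between the subunits, had the largest fall. It had 10713, 10379 and 10123 normalized counts in control and 7577, 7526 and 6932 in knockdown libraries. The groups did not overlap, and the mean fell from 10405 ± 296 to 7345 ± 359 (SD, n = 3), a change of -29.4% and a log2 fold change of -0.50 (SE 0.042, adjusted p = 6.6e-07). Within a library, RPL24 held 1.139%, 1.149% and 1.096% of all counts on members in control and 0.795%, 0.795% and 0.764% in knockdown libraries. Only 0.459% of its read-length stretches had an exact match elsewhere. RPL24 also has 4 copies elsewhere that match nearly its whole transcript, the closest with 96.55% identity. The tested neighbours, also looked up afterwards, were ZBTB11 at -0.12 (SE 0.047, adjusted p = 0.044) and CEP97 at -0.11 (SE 0.060, adjusted p = 0.14).

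The other members that fell did so by smaller amounts. RPSA, a protein of the small subunit near the exit of the mRNA and known also as the laminin receptor precursor, had 22661, 22209 and 21604 normalized counts in control and 19376, 19481 and 19094 in knockdown libraries. All knockdown libraries were below all control libraries, with a log2 fold change of -0.20 (SE 0.034, adjusted p = 3.5e-04). RPSA has 33 copies elsewhere that match nearly its whole transcript, and 49.1% of its read-length stretches were not unique. RPL38, which mouse genetics tied to the translation of Hox mRNAs, had 6051, 6090.8 and 5818.8 normalized counts in control and 5442.9, 5379.6 and 5002.2 in knockdown libraries. Its groups were apart, with a log2 fold change of -0.18 (SE 0.041, adjusted p = 0.0025). RPS26, which lines the exit channel of the mRNA, had 3708, 3570 and 3658 normalized counts in control and 3465, 3353 and 3253 in knockdown libraries. The values did not overlap, and the log2 fold change was -0.12 (adjusted p = 0.022). RPL7A, a protein of the large subunit, fell by the same 0.12 on the log2 scale (adjusted p = 0.016), and RPL7, the first member outside the threshold among those that were lower, had -0.11 (adjusted p = 0.059).

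Among the members that rose beyond the stalk, RPS14 had the lowest adjusted p. RPS14, a protein of the platform of the small subunit whose loss of 1 allele marks the 5q- syndrome, had 16516, 15505 and 16997 normalized counts in control and 18967, 18552 and 17775 in knockdown libraries. The groups did not overlap, with a log2 fold change of 0.17 (SE 0.042, adjusted p = 0.0037). RPS29, a small zinc-binding protein of the head of the small subunit, had 2106, 1978 and 2007 normalized counts in control and 2552, 2383 and 2108 in knockdown libraries. Knockdown replicate 3 was barely above the highest control library, and without knockdown replicate 1 the call was lost (log2 fold change 0.21, adjusted p = 0.010 with all libraries and 0.064 without it). RPL36A, which lies near the exit site of the tRNA, had 168.5, 132.9 and 168.9 normalized counts in control and 229.7, 197.1 and 214.4 in knockdown libraries. It rose without overlap (log2 fold change 0.44, SE 0.114, adjusted p = 0.0057), but 43.8% of its transcript bases are shared with the readthrough gene RPL36A-HNRNPH2, so that its counts come from part of the transcript. RPS12, RPL30, RPL37A, RPL31, RPL13A and RPL23 complete the count of those that rose, with log2 fold changes of 0.15, 0.14, 0.13, 0.12, 0.12 and 0.10. RPL31 was the only one of the 12 with overlapping groups and the last inside the threshold on p (adjusted p = 0.033). RPS12, RPL30, RPL37A, RPL13A and RPL23 were named after their values were seen, to complete the count.

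By place in the ribosome, calls were spread over several sites, where 48.3% of all genes tested were called. The share called was 11.1% at the exit tunnel, 60% at the mRNA exit and platform and 0% at the mRNA entry and decoding site. Of 9 members that line the exit tunnel for the nascent chain, RPL31 rose and the other 8 did not pass the test, the lowest being RPL19 at -0.04. Of the 5 at the mRNA exit and platform, RPS14 rose while RPSA and RPS26 fell. Of the 4 at the mRNA entry and decoding site, 0 were called by edgeR and 0 by DESeq2, and 2 had an unadjusted p under 0.05, RPS2 with a log2 fold change of -0.10 (adjusted p = 0.063) and RPS3 with 0.09 (adjusted p = 0.073). RPL5 and RPL11, which bind 5S rRNA and, when free of the ribosome, MDM2, had log2 fold changes of -0.02 (SE 0.037, adjusted p = 0.67) and 0.06 (SE 0.033, adjusted p = 0.16). RPS6, the substrate of S6 kinase, had 13831, 13144 and 13467 normalized counts in control and 12719, 13206 and 12819 in knockdown libraries, which overlap (log2 fold change -0.06, adjusted p = 0.17). RPS27A, made as a fusion with ubiquitin, had -0.08 (adjusted p = 0.072). Of 18 tested genes mutated in Diamond-Blackfan anaemia, an inherited failure of red cell production, RPS29 and RPL31 rose, RPS26 fell and 15 did not pass. The share called was 16.7%, against 48.3% of all genes tested. These counts depended on scaling. With library size alone, 6 of the anaemia genes, 4 at the exit tunnel, 2 at the mRNA entry and decoding site and 1 of RPL5 and RPL11 were called higher. With the summed counts of the members as library size, 1 anaemia gene rose and 1 fell, RPL31 no longer passed, and 1 at the entry and decoding site fell.

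The 2 subunits were described side by side. In the large subunit 9 members rose and 3 fell of 46, with a median log2 fold change of 0.04, and in the small subunit 3 rose and 2 fell of 30 tested, with a median of 0.01, beside 48.3% called among all genes tested. With library size alone 21 rose and 2 fell in the large and 10 rose and 1 fell in the small subunit, and with the summed counts of the members as library size 5 rose and 4 fell in the large and 3 rose and 3 fell in the small subunit. The sign of the small-subunit median turned under 4 alternatives, and no direction is given for it. With that last scaling the medians were 0.02 for the large and -0.01 for the small subunit.

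The share of a library taken by the ribosomal protein genes was slightly larger after knockdown, as a description without a test. Members held 2.858%, 2.699% and 2.804% of all gene counts in control and 2.99%, 2.98% and 2.88% in knockdown libraries. The groups did not overlap, with means of 2.79% ± 0.081 and 2.95% ± 0.059 (SD, n = 3) and a difference of 0.165 percentage points. Without RPLP0 the shares were 2.80%, 2.65% and 2.75% in control and 2.90%, 2.89% and 2.80% in knockdown libraries, and the lowest knockdown library then fell just below the highest control library. The large-subunit share was 1.69% ± 0.052 in control and 1.80% ± 0.032 in knockdown cells with groups apart, and the small-subunit share was 1.102% ± 0.029 and 1.152% ± 0.027 (SD, n = 3) with overlapping values. A share of a library is relative, and more mRNA of these genes per cell cannot be told apart from less of other mRNA. The TMM factors, which correct for such shifts, were 0.968 to 0.984 in control and 1.02 to 1.03 in knockdown libraries.

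**Figure D3:**
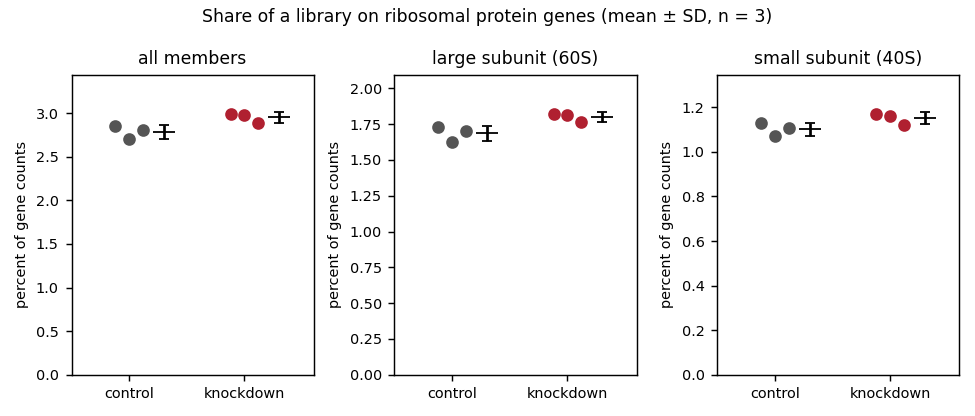
Percent of all gene counts (y axis, from 0) on all members, on the large subunit and on the small subunit, for each control (grey) and knockdown (red) library with mean and SD (n = 3). All members took 2.699% to 2.858% in control and 2.88% to 2.99% in knockdown libraries, without overlap, while the small-subunit values overlap.

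Levels between genes were compared as CPM (counts scaled to a common library total) per kilobase of the median protein-coding transcript length, for control cells. RPS18 had the highest value, 1263 ± 45.4 (SD, n = 3), followed by RPS2 at 1208. The order depends on the annotated length. RPL14, with a mean of 11316 normalized counts in control cells, had only 48.3 because its median length was 7072 bases. RPS10 had the lowest value above 0, 1.82, followed by RPL17 at 5.22, RPL36A at 6.23, RPL26 at 18.1 and RPS15A at 25.6. These 5 all share exons on the same strand with another gene, over 84.0%, 96.9%, 43.8%, 65.3% and 9.90% of their transcript bases. The row of the sharing gene held 0 counts in all 6 libraries for each of them, among them RPS10-NUDT3 and RPL17-C18orf32. The counting assigns no read that falls on more than 1 gene, so these levels cover only the part of each transcript that could be counted. RPS10 had 34 to 74 counts per library and a log2 fold change of 0.44 (SE 0.208, adjusted p = 0.099), and RPL17 one of 0.08 (SE 0.118, adjusted p = 0.61). Without the members that share exons, an alternative added after the data were seen, 10 members rose and 5 fell, with a median log2 fold change of 0.01.

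Counting of unique reads also touched members with processed copies. In 33 of 77 members no read-length stretch was found elsewhere in the genome, and the median was 1.73%. More than 50% of the stretches were found elsewhere in 8 members, with RPL21 at 100%, RPS27 at 93.4% and RPL39 at 92.1%. RPL21 still had 11124 to 15591 counts per library, so these percentages do not give the share of reads lost. The 1587 pseudogenes named for members held 0.0242% to 0.0264% of the gene counts of a library. Median shares of such stretches were 0% for the members that rose, 29.1% for those that fell and 3.10% for those that did not pass the test. The part of these copies in the results was not tested beyond the values given for single genes.

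The sequence of siRNA LINC01133a is shown because its seed, bases 2 to 8 of a strand, in capitals, can pair with other mRNAs.
Guide strand: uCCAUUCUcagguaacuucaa
Passenger strand: gAAGUUACcugagaauggatt
The sites searched were AGAATGG for the guide and GTAACTT for the passenger strand, on the sense strand of the canonical GENCODE v44 transcript. The 3′ UTR of 5 of 77 members (6.49%) held a guide site, against 17.1% of 12538 tested coding genes, with median 3′ UTR lengths of 112 and 1365 bases. These 5 were RPL23 and RPL37A, which rose, and RPL37, RPS27A and RPS6, which did not pass the test. In RPL23, RPL37A and RPL37 the site began at base 1487, 2197 and 4945 of the canonical transcript. The median protein-coding transcripts of these genes are only 588, 529 and 637 bases long. In RPS27A and RPS6 the site began within the median length, at base 570 of 745 and 1047 of 1123.5. Whether the cells express the longer transcripts was not tested. The passenger site was in the 3′ UTR of 5 members (6.49%), against 13.6% of the tested coding genes. In RPL23, RPL27A, RPL32 and RPS6 it began beyond the median length of the gene, and in RPL22 within it. The passenger site was also in the 5′ UTR of RPSA, which fell (1.30% of members, against 0.295% of 12531 tested coding genes). The guide site was in the coding sequence of 5 members (6.49%, against 19.1% of 12565 tested coding genes), RPS12, which rose, and RPL9, RPS23, RPS27A and RPS6, which did not pass the test. No site of either strand was in the transcripts used for RPLP0, RPLP1, RPLP2, RPL24 or RPL38.

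Ribosomal proteins without an RPL or RPS symbol were looked at next. FAU, which encodes a small-subunit protein fused to a ubiquitin-like one, had a log2 fold change of 0.10 (SE 0.042, adjusted p = 0.062). RACK1, a scaffold on the small subunit, had 0.004 (SE 0.034, adjusted p = 0.94), and neither passed the test. Of 8 listed paralogues of members, 6 were tested and 4 were called (66.7%, against 48.3% of all genes tested). RPL39L rose from 329 ± 4.16 to 398 ± 36.4 normalized counts (SD, n = 3; log2 fold change 0.28, adjusted p = 0.011) and RPL26L1 rose by 0.24 (adjusted p = 6.0e-04). RPL7L1 had -0.20 (adjusted p = 5.8e-04) and RPL36AL -0.11 (adjusted p = 0.046), both lower, and the call of RPL36AL was lost under 7 of 14 alternatives, with an adjusted p of 0.061 by DESeq2 and 0.337 with library size alone. The call of RPL39L was lost without knockdown replicate 1 (adjusted p = 0.068), while RPL22L1 at -0.15 (adjusted p = 0.15) and RPS27L at -0.05 (adjusted p = 0.41) did not pass.

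Other mRNAs with a TOP motif, which encode translation factors and related proteins, were counted for comparison. Of 15 listed, 14 were tested, 2 rose and 3 fell, with a median log2 fold change of -0.01. With library size alone 5 rose and 2 fell, with a median of 0.06, so no direction is given. NAP1L1, a histone chaperone, fell from 18644 ± 513 to 12521 ± 88.3 normalized counts (SD, n = 3; log2 fold change -0.57, SE 0.035, adjusted p = 3.5e-08) and EIF3E, a subunit of an initiation factor, fell by 0.18. TPT1, which encodes the translationally controlled tumour protein, rose by 0.16, and PABPC1, the poly(A)-binding protein, by 0.17 on the log2 scale.

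**Figure D4:**
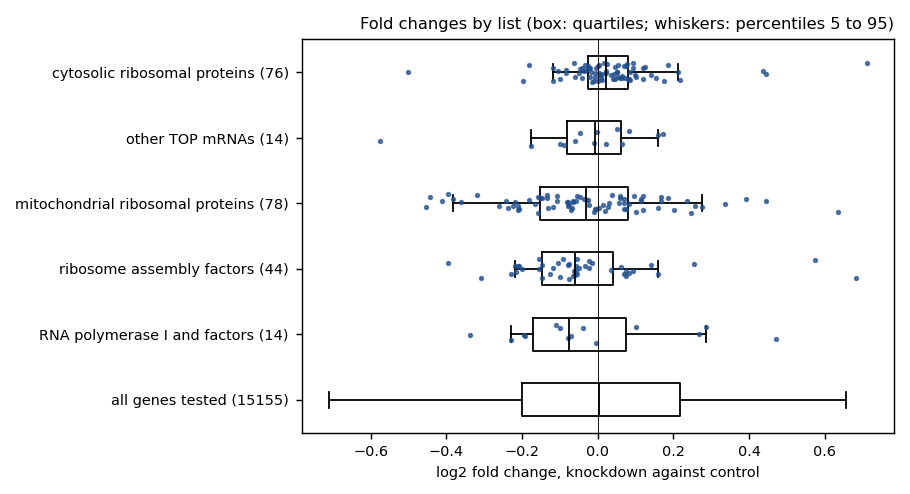
Log2 fold change (x axis, knockdown against control) of the genes of 5 lists and of all 15155 genes tested, as boxes of quartiles with whiskers from percentile 5 to 95 and 1 point per gene of a list. The box of the 76 ribosomal protein genes has an interquartile range of 0.106, and that of the other TOP mRNAs comes closest (0.1435). The boxes of the assembly factors (0.188), the mitochondrial ribosomal proteins (0.233), RNA polymerase I (0.247) and all genes tested (0.419) are wider.

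Mitochondrial ribosomal proteins, which are nuclear-encoded and serve translation inside mitochondria, gave a wider spread. Of 79 listed, 78 were tested, 13 rose and 24 fell, together 47.4% of those tested, near the 48.3% of all genes tested. The median log2 fold change was -0.03 with an interquartile range of 0.233. The lowest were MRPL36 at -0.45 and MRPS6 at -0.44, and the highest were MRPL45 at 0.44 and MRPL2 at 0.63, the last with mean normalized counts of 19.3 and 30.5. The call of MRPL2 (adjusted p = 0.044) was lost under 10 of 14 alternatives, with an adjusted p of 0.145 by DESeq2. Of 44 ribosome assembly factors, 3 rose and 13 fell (36.4%, against 48.3% of all genes tested), with a median of -0.06. GAR1, a protein of the H/ACA particles that guide pseudouridylation, had -0.40 and UTP4, of the small-subunit processome, -0.31, while TCOF1 rose by 0.16 and DDX47 by 0.68 from a mean of 49.2 normalized counts. Of 14 subunits and factors of RNA polymerase I, which makes the precursor of rRNA, 3 rose and 4 fell (50%, near the same background). These were led by POLR1F at -0.34 and POLR1G at -0.23, and by TAF1C at 0.47 and POLR1D at 0.29. The call of POLR1G (adjusted p = 0.025) was lost under 5 of 14 alternatives. With library size alone, the counts were 20 higher and 13 lower for the mitochondrial ribosome, 9 higher and 8 lower for the assembly factors and 3 higher and 2 lower for RNA polymerase I, and with the summed counts of the members as library size 7 higher and 25 lower for the mitochondrial ribosome, so these lists are given no direction.

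Of 13 regulators of ribosomal protein transcription and translation, 3 rose and 3 fell, 46.15% against 48.3% of all genes tested. With library size alone 6 rose and 2 fell, and DESeq2 called 4 in all. EIF4EBP2, a repressor of the cap-binding protein, rose from 10518 ± 537 to 14775 ± 188 normalized counts (SD, n = 3; log2 fold change 0.49, adjusted p = 6.0e-07) and EIF4EBP1 rose by 0.27 (adjusted p = 6.0e-04). EIF4E, the cap-binding protein itself, had -0.27 (adjusted p = 3.5e-04) and YY1, a transcription factor at ribosomal protein promoters, -0.19, both lower. MTOR at -0.01, LARP1 at 0.05 and MYC at -0.03, named after their values were seen, did not pass the test. Of 4 genes of the p53 axis, CDKN1A, a p53 target that encodes the cell cycle inhibitor p21, rose by 0.93 (adjusted p = 9.0e-09) and MDM2, which RPL5 and RPL11 bind, by 0.29 (adjusted p = 6.0e-05). The share called was 50%, near the 48.3% of all genes tested.

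**Figure D5:**
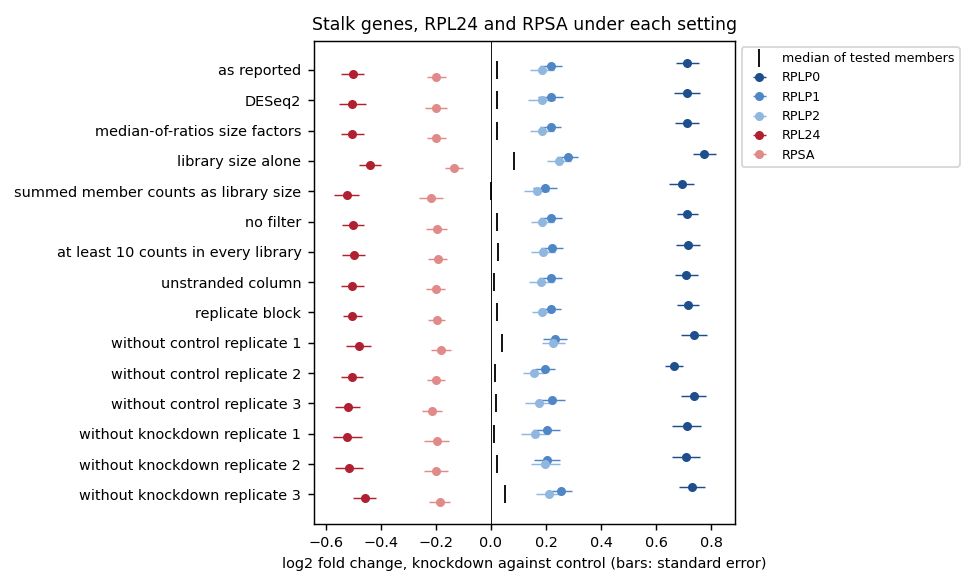
Log2 fold change (x axis, with standard error) of RPLP0, RPLP1, RPLP2, RPL24 and RPSA and the median of the tested members (black ticks) under the reported settings and 14 alternatives (y axis). RPLP0 lies between 0.67 and 0.78 and RPL24 between -0.52 and -0.44 throughout, while the median of the members stays near 0 and is highest, at 0.08, with library size alone.

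Under 14 alternatives of scaling, filter, tool, strand column, replicate block and libraries left out, 8 of the 17 calls held in each, namely RPLP0, RPLP1, RPLP2, RPS14 and RPL36A higher and RPL24, RPSA and RPL38 lower. RPLP0 ranged from 0.67 to 0.78 with a highest adjusted p of 8.9e-07, and RPL24 from -0.52 to -0.44 with a highest adjusted p of 1.2e-05. RPLP1 ranged from 0.20 to 0.28, RPLP2 from 0.16 to 0.25 and RPS14 from 0.14 to 0.24. RPSA ranged from -0.22 to -0.14 and RPL38 from -0.20 to -0.12. RPL12 had values from -0.07 to 0.02 on both sides of 0. The other 9 calls were lost under at least 1 alternative, none of the 17 changed sign under the 14, and 32 of the 59 members that did not pass the test did.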

How the data were processed

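The authors aligned the reads with STAR 2.7.6a to GRCh38.p13 with the GENCODE annotation, kept reads mapping to a single place (SAMtools 1.10 is also named in the submitters' processing notes), and deposited raw counts per gene for 3 control and 3 knockdown libraries, without normalization. Counts of the strand opposite to read 1 were used. The library kit is described differently by the study and by its labels. Symbols, exons and transcripts came from GENCODE v44, matched on gene identifiers, so they may differ from the annotation used for counting.

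Genes were filtered with filterByExpr (minimum count 10), leaving 15155 of 60660, scaled by TMM and compared with edgeR 4.0.16 (quasi-likelihood test, condition as the only term, R 4.3.3), with p-values adjusted by Benjamini-Hochberg across the whole table and a threshold of 0.05. Fold changes are knockdown against control, and SE is the log2 fold change divided by the root of F. Normalized counts are counts divided by the TMM-scaled library size and multiplied by a common size. The steps were tested on simulated data. The replicates were taken as separate samples. The p-values set the difference between the groups against the spread between replicates, which edgeR estimates for each gene by drawing on all genes tested.

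The members, lists and alternatives were chosen with earlier results of these data known. Named members were the 5 highest and 5 lowest log2 fold changes with an adjusted p under 0.05, the highest and lowest level per length, those below the filter, the stalk, RPL5, RPL11, RPS6, RPS27A and RPSA, the extremes of each list of sites, and those next to a threshold, and for other lists the 2 highest and 2 lowest called. Same-numbered libraries deviated together with correlations of -0.015, 0.0049 and 0.057. These gave no sign of pairing by number, but cannot show that same-numbered libraries were handled apart. Alternatives were DESeq2 1.42.0, other scalings and filters, the unstranded column, a replicate block and each library left out. Some items on the lists are not reported here.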

Additional observations from a re-analysis of the deposited data

How the results depend on the processing

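With library size alone, 31 members rose and 3 fell, with median log2 fold changes of 0.084 over all members, 0.0997 for the large and 0.0766 for the small subunit, while the median of all genes moved from 0.003 to 0.065. Only the scaling differed in this fit. With single libraries left out, 5 to 16 members rose and 3 to 7 fell. The lowest counts of rises were 5 without knockdown replicate 1 and 7 without knockdown replicate 2, and 3 fell without control replicate 1 and without knockdown replicate 2. Members past the fold change of 1.5 were 1 to 2, the second being RPS10 without control replicate 1. With the replicate number as a block, 13 members rose and 6 fell with a median of 0.02, and 1 passed the fold change of 1.5. The median of the small subunit was below 0 with summed member counts (-0.00648), the unstranded column (-0.00158), without control replicate 2 (-0.00338) and without knockdown replicate 2 (-0.00827). With summed member counts as library size, 8 rose and 7 fell. Why single libraries changed the counts was not tested. At this depth and with 3 libraries a group, the smallest called change of a member was 0.10 on the log2 scale, and the members with few counts had standard errors up to 0.208. Counts of the smaller lists moved with scaling as given beside them, and none of the 17 calls of members changed sign.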
